A study of Mus musculus with 16 samples.

Results

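The genes described here carry sodium, chloride and bicarbonate across the intestinal epithelium. The 10 genes were chosen by name for that role, with earlier results of these data known. They are Slc9a2, Slc9a3, Slc26a3, Slc26a6, Cftr, Slc12a2, Scnn1a, Slc4a4, Car2 and Car4, out of 24421 genes in the count tables. All 10 passed the filter on low counts that left 13429 genes for testing.

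The study asked how the jejunum and ileum of suckling mice differ from each other and from the intestine of older mice. Bulk RNA sequencing was done on epithelium that EDTA had loosened from the opened gut of 4 mice at postnatal day 6 (P6) and 4 mice at postnatal day 36 (P36). Every mouse gave a jejunum and an ileum library, so that 16 libraries fell into 4 groups of 4, with 2 males and 2 females at either age. All were labelled wild type on the C57BL6/J strain, the labels name no treatment, and replicates 1 to 4 of an age are the same 4 mice in both regions.

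Totals ran from 12159237 to 25947276 assigned counts per library. Levels are given as CPM, counts scaled to the size of the library with TMM factors, and levels of different genes are compared only as TPM, which also divide by gene length. Epithelial markers were high in every library, with summed CPM of Epcam, Cdh1, Krt8, Krt18 and Vil1 between 3808 and 12951. Some ileum libraries stood apart. P6 ileum replicate 2 held 245 summed CPM of 6 fibroblast markers against 20.2 to 42.2 in the other 3, and 188 of 5 smooth muscle markers against 1.19 to 2.99. P6 ileum replicate 4 had the lowest epithelial sum and the highest crypt and cycling sum of its group, 689 against 308 to 459. P36 ileum replicate 1 had 8386 summed CPM of 4 mature enterocyte markers (Alpi, Krt20, Treh and Apoa1) against 1409.7 to 4055 in the others. Apoa1 had the highest mean CPM of these markers in every group. Paneth markers summed to between 18.8 and 79.5 CPM at P6 and between 3375 and 11741 at P36, and goblet markers to between 1399 and 3492 at P6 and between 6872 and 14409.9 at P36, so every comparison of ages also compared epithelia with different secretory cell markers. Because these are bulk libraries, fewer cells of a type and less RNA per cell cannot be told apart. The p-values below rest on the spread between libraries within a group, estimated over the 4 groups together. Except where the mouse is named as a block, the 2 libraries of a mouse were treated as separate.

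The small intestine takes up sodium chloride mainly through an apical sodium/hydrogen exchanger working beside a chloride/bicarbonate exchanger, and carbonic anhydrases supply both with protons and bicarbonate. Crypt cells secrete chloride that enters from the blood side through a cotransporter and leaves through the CFTR channel. An epithelial sodium channel, best known from the distal colon and kidney, takes up sodium without a partner ion, and a sodium bicarbonate cotransporter of the basolateral membrane moves bicarbonate between cell and blood.

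Promoter windows of RefSeq (build GRCm38.p6, 250 bases before to 50 after a transcript start) were matched for 6 of the 10 genes: Slc9a3, Slc26a3, Slc26a6, Cftr, Slc4a4 (with 2 windows) and Car4. Slc9a2, Scnn1a and Car2 had no window in the table, and that of Slc12a2 was not searched. The windows of Slc26a3, which was higher in the jejunum at P6, and of Slc26a6 and Car4, which both rose with age, are shown so that the starts of these genes can be compared. All lie on the plus strand, at chr12:31437969-31438268, chr9:108853793-108854092 and chr11:84957504-84957803. Capitals mark the motifs found.
Slc26a3: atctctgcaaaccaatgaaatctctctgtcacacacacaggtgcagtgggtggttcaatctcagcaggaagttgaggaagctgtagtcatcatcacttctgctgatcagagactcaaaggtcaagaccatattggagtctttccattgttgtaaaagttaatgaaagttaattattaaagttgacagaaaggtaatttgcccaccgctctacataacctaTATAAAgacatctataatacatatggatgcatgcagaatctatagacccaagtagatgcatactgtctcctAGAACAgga
Slc26a6: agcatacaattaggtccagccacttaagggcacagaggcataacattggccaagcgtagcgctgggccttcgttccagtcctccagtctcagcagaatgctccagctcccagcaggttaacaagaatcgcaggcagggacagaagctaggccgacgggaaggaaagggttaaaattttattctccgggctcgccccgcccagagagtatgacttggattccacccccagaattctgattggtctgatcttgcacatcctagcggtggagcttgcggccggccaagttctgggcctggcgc
Car4: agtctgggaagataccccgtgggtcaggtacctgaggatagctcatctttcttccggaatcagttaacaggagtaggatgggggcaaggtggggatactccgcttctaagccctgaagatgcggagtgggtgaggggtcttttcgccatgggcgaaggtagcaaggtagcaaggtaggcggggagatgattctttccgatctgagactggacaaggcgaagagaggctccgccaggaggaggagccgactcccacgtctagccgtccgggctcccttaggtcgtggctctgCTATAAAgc
Motifs were searched on both strands as plain letters: CAAAGTCCA for HNF4, TTTATNG for CDX, AGATAA for GATA factors, AGAACA as the core of a glucocorticoid receptor site and TATAAA for the TATA box. Of 32851 mouse promoter windows of the same length, 0.475%, 10.9%, 11.2%, 19.0% and 13.6% held them. The Slc26a3 window held TATAAA at position -30 from the start and AGAACA at position 41 after it. The capitals of Car4 are an overlapping match of TTTATNG on the minus strand at position 41 and TATAAA on the plus strand at position 42, both after the start. The other 5 windows held none of these letters, and GC content ran from 39.3% in Slc26a3 to 80.0% in the first Slc4a4 window.

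Of the 10 genes, 7 differed with age in each region, 7 between regions at P6 and 3 at P36. In the jejunum, 6 were higher at P36 (Car4, Slc9a2, Slc4a4, Car2, Slc26a6 and Cftr) and 1, Scnn1a, was lower, while among all tested genes 24.7% were higher and 26.9% lower at P36. In the ileum, 6 were higher at P36 (Car4, Slc9a2, Slc4a4, Slc26a6, Cftr and Slc26a3) and Scnn1a was again lower, against 25.5% and 30.1% of all tested genes. Their median log2 fold change with age was 2.15 in the jejunum and 1.06 in the ileum, and that of all tested genes was -0.01 and -0.03. A gene was taken to differ at an adjusted p below 0.05 in the edgeR quasi-likelihood test. The 2 comparisons of age used different libraries, but these came from the same mice and were tested in 1 fit. They are therefore not independent of each other.

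Between the regions at P6, 4 genes were higher in the jejunum (Scnn1a, Slc9a3, Slc26a3 and Car2) and 3 in the ileum (Slc4a4, Slc9a2 and Car4), against 11.1% and 14.8% of all tested genes. At P36 only Car2 and Slc9a3 of the 10 were higher in the jejunum and only Scnn1a in the ileum, against 8.30% and 7.80% of all tested genes. With the mouse as a replicate block, 5 of the 10 passed at P36, adding Slc26a3 and Slc12a2. The share of all tested genes passing with this block is not given here. The rise is therefore not read as particular to these genes. The 4 mature enterocyte markers also summed higher in the jejunum, at P6 to between 19736 and 23877 CPM against 4511 to 8640 in the ileum and at P36 to between 8402 and 11308 CPM against 1409.7 to 8386, without overlap at either age. Apoa1 led these sums, with jejunum and ileum means of 17984 and 4995 CPM at P6 and 6700 and 2170 at P36. Of the 4 markers, Krt20 and Apoa1 passed as higher in the jejunum at P6, and Treh, Apoa1 and Alpi at P36. The part of these markers in the regional differences was not tested. For the 10 genes, the median log2 fold change of jejunum over ileum was 0.05 at P6 and 0.10 at P36, beside -0.05 and -0.04 for all genes. The difference between the ages in this regional contrast, tested as an interaction, passed for Scnn1a and Car2, and for 8.69% of all tested genes.

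**Figure D1:**
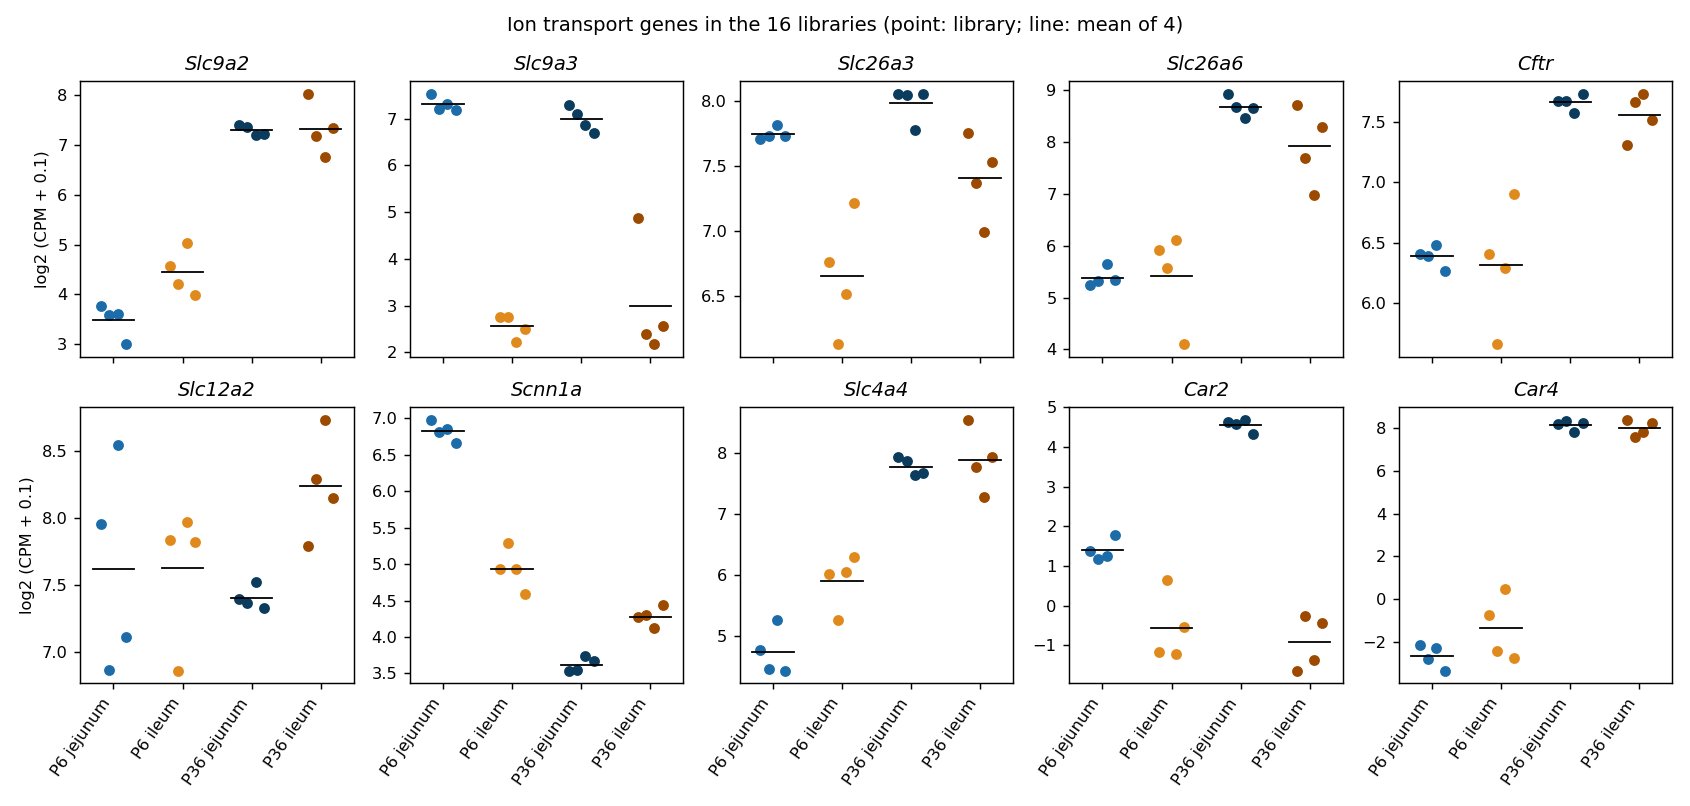
Levels of the 10 genes as log2 (CPM + 0.1) in each of the 16 libraries (points, colored by group) with the mean of the 4 libraries of a group (line); each panel has its own vertical scale. Slc9a2, Slc26a6, Slc4a4 and Car4 sit higher at P36 in both regions without overlap, Scnn1a sits lower at P36, and Slc9a3 and Car2 are set apart by region.

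**Figure D2:**
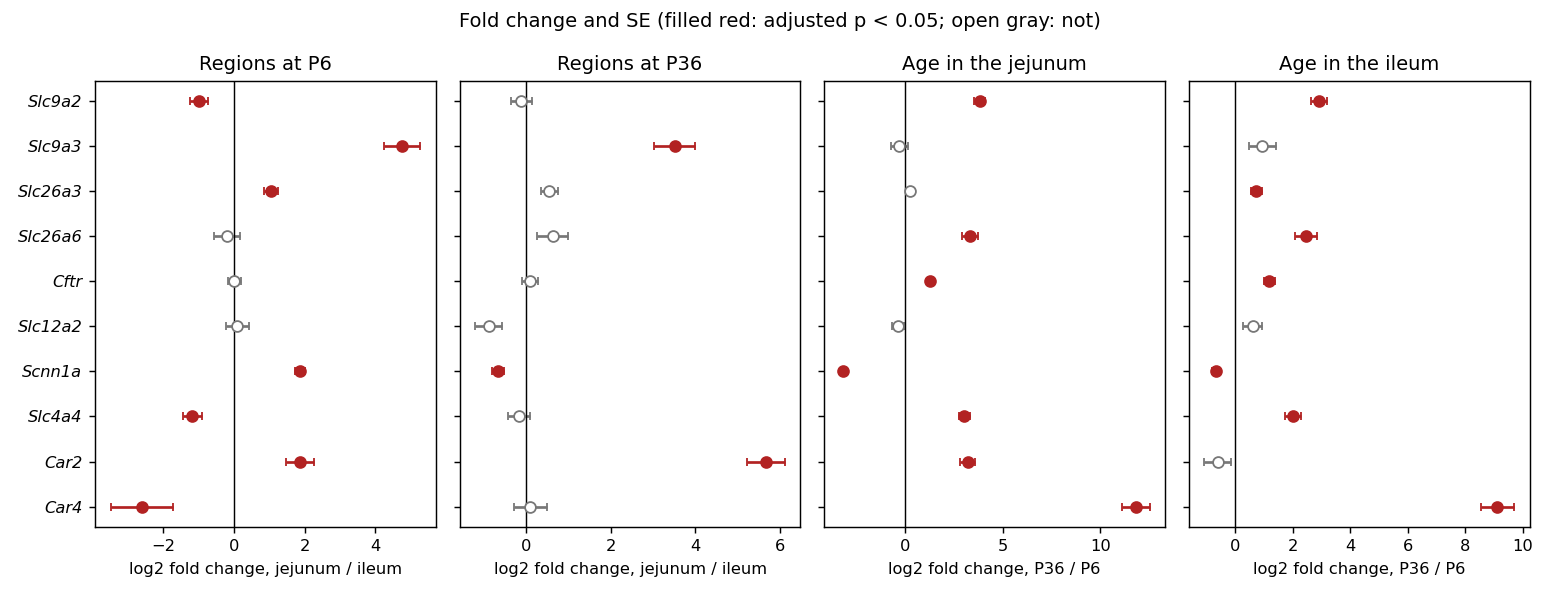
Log2 fold change (point) with its SE (bar) of the 10 genes between the regions at either age, and between P36 and P6 in the jejunum and in the ileum. Filled red points passed at an adjusted p below 0.05: 7 genes at P6, 3 at P36, 7 with age in the jejunum and 7 with age in the ileum.

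Ranked by TPM, the order of the genes turned over between the ages. In the P6 jejunum the highest were Slc26a3 at 148 ± 12.7 TPM (SD, n = 4) and Slc9a3 at 127 ± 16.7, ahead of Slc12a2 at 68.2 ± 40.5 and Scnn1a at 65.0 ± 7.16, and these last were not separated beyond their spread. By P36 the jejunum was led by Car4 at 399 ± 58.6 TPM, followed by Slc26a6 at 282 ± 32.2 and Slc26a3 at 162 ± 13.2. Slc9a3 at 95.2 ± 16.6 and Slc9a2 at 83.4 ± 5.63 came next and overlapped. Car4 had been the lowest of the 10 in the P6 jejunum, at 0.109 ± 0.0923 TPM, where only 3.50% of the tested genes lay below it, and at P36 97.1% did. In the ileum the P6 order began with Slc26a3 at 97.0 ± 35.7 and Slc12a2 at 84.8 ± 27.2 TPM, within each other's spread, and the P36 order with Car4 at 384 ± 72.2, Slc26a6 at 188 ± 81.7 and Slc26a3 at 115 ± 22.6. Scnn1a went the other way, from 65.0 TPM in the P6 jejunum to the lowest place in the P36 jejunum at 6.48 ± 0.531.

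Slc9a3 encodes NHE3, the principal apical sodium/hydrogen exchanger of the absorptive enterocyte, and lies on chromosome 13 (mm10 13:74121515-74166064). It was a jejunal gene at both ages. In the P6 jejunum the 4 mice had 185, 147, 159 and 144 CPM, and their ileum had 6.71, 6.63, 4.56 and 5.54 CPM. No ileum value came near a jejunum value of any mouse. The jejunum was 27.0-fold higher (log2 4.76, SE 0.52, adjusted p = 7.79e-06, edgeR). At P36 the jejunum held 156, 137, 116 and 104 CPM and the ileum 29.4, 5.16, 4.41 and 5.78 CPM. Replicate 1 of the P36 ileum was several times its group mates, and still far below every jejunum library. The jejunum was 11.4-fold higher at P36 (log2 3.51, SE 0.49, adjusted p = 0.000139, edgeR), and the log2 value was 4.65 without P36 ileum replicate 1.

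In the jejunum the log2 fold change of Slc9a3 with age was -0.31 (adjusted p = 0.586, edgeR; approximate 95% interval -1.17 to 0.55). In the ileum the value was 0.93 (adjusted p = 0.1004) and rested on 1 library, for it was -0.20 without P36 ileum replicate 1 and passed, at 1.18 and 1.21, without replicate 2 or replicate 3 (adjusted p = 0.0459 and 0.0331). The interaction was 1.24 (adjusted p = 0.264) and 0.11 without P36 ileum replicate 1. That library also had the highest mature enterocyte sum of its group, as given above, and the part of those markers in the Slc9a3 value was not tested.

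Slc9a2 encodes NHE2, a second apical sodium/hydrogen exchanger, on chromosome 1 (1:40681712-40768885). Unlike Slc9a3 it rose with age in both regions. The P6 jejunum had 13.4, 11.8, 12.0 and 7.85 CPM and the P36 jejunum 169, 164, 147 and 149 CPM. The P6 ileum had 23.7, 18.2, 32.4 and 15.8 CPM and the P36 ileum 263, 145, 108 and 162 CPM. The ages did not overlap in either region. Slc9a2 was 13.9-fold higher at P36 in the jejunum (log2 3.80, SE 0.29, adjusted p = 2.07e-08) and 7.52-fold higher in the ileum (log2 2.91, SE 0.27, adjusted p = 2.70e-07, both edgeR). At P6 it was 2.00-fold higher in the ileum (log2 -0.998, SE 0.26, adjusted p = 0.0108, edgeR), in 4 of 4 mice and without overlap. At P36 the regional log2 value was -0.11 (adjusted p = 0.837, edgeR; approximate interval -0.61 to 0.39) and was 0.18 without P36 ileum replicate 1. The interaction did not pass (-0.89, adjusted p = 0.155, edgeR), although it did without P36 ileum replicate 1 (-1.18, adjusted p = 0.0290) and under scaling by library totals (-1.07, adjusted p = 0.0489).

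On the TPM scale, the share of Slc9a3 in this pair was lower at P36 in both regions. Slc9a3 supplied 95.1%, 94.6%, 94.9% and 96.3% of their summed TPM in the 4 P6 jejunum libraries. In the P36 jejunum it supplied 56.4%, 54.0%, 52.4% and 49.3%. The P6 ileum stood at 28.4%, 33.8%, 16.5% and 33.0%, and the P36 ileum at 13.6%, 4.76%, 5.42% and 4.76%. The 4 groups did not overlap. The summed TPM of both genes averaged 134 ± 17.9 at P6 and 179 ± 21.8 at P36 in jejunum libraries, and 23.5 ± 5.03 and 101 ± 40.4 in ileum libraries.

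Scnn1a, the alpha subunit of the epithelial sodium channel ENaC, lies on chromosome 6 (6:125321340-125344942) and was the gene whose regional order turned around. The P6 jejunum had 126, 112, 116 and 102 CPM and the P6 ileum 30.6, 39.2, 30.4 and 23.9 CPM. At P36 the jejunum had 11.5, 11.6, 13.2 and 12.6 CPM and the ileum 19.2, 19.6, 17.3 and 21.5 CPM. All 4 mice had more in the jejunum at P6 and all 4 had more in the ileum at P36, with no overlap of groups at either age. The jejunum was 3.67-fold higher at P6 (log2 1.88, SE 0.14, adjusted p = 1.64e-07) and the ileum 1.58-fold higher at P36 (log2 -0.66, SE 0.14, adjusted p = 0.00401, both edgeR). In the jejunum Scnn1a fell with age by 3.22 on the log2 scale, or 9.32-fold (SE 0.15, adjusted p = 1.05e-10, edgeR), and in the ileum by 0.68, or 1.601-fold (SE 0.14, adjusted p = 0.000646, edgeR). The regional log2 fold change at P6 exceeded that at P36 by 2.54 (SE 0.20, adjusted p = 8.13e-07, edgeR interaction).

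ENaC is built from 3 kinds of subunit, and the other two were nearly absent from these libraries. Scnn1b, the beta subunit, had 19 counts in all over the P6 ileum and 0 in the other 3 groups, and did not pass the filter on low counts. It is named here after its values were seen. Scnn1g, the gamma subunit, had 129 counts over the P6 jejunum, 13 over the P6 ileum, 1 over the P36 jejunum and 0 over the P36 ileum. It was higher in the jejunum at P6 (log2 3.19, adjusted p = 0.00411, edgeR) and, like Scnn1a, lower at P36 in both regions (adjusted p = 9.25e-05 and 0.0121). Prss8, a membrane serine protease that activates ENaC, also fell with age, in the jejunum by 2.20 on the log2 scale (adjusted p = 0.000220, edgeR) and in the ileum by 1.82 (adjusted p = 0.000951). Nr3c2, the mineralocorticoid receptor through which aldosterone induces ENaC, was higher at P36 by 1.49 in the jejunum (adjusted p = 3.82e-05) and 1.81 in the ileum (adjusted p = 5.56e-06, both edgeR). Hsd11b2, the enzyme that shields this receptor from glucocorticoids, was higher at P36 by 2.39 and 4.49 (adjusted p = 8.77e-05 and 1.43e-07). Its mean was 43.3 CPM in the P36 ileum and 5.91 CPM in the P36 jejunum (log2 -2.87, adjusted p = 6.17e-05, edgeR). Scnn1a was also higher in the ileum at P36, but with age it fell in both regions where Hsd11b2 rose. The part of these genes in the Scnn1a values was not tested.

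**Figure D3:**
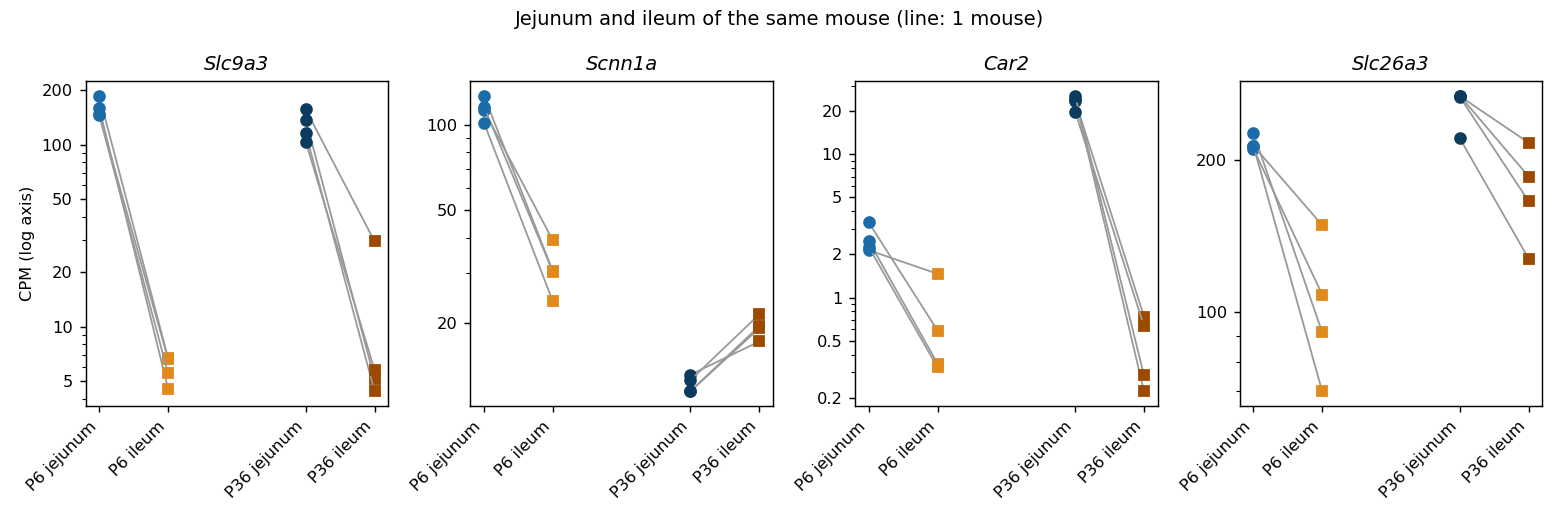
CPM on a log axis of Slc9a3, Scnn1a, Car2 and Slc26a3 in the jejunum (circles) and ileum (squares) of each mouse, joined by a line, at P6 and P36. The lines of Scnn1a slope down in all 4 mice at P6 and up in all 4 at P36, and those of Car2 slope down at both ages and more steeply at P36.

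Slc26a3, or DRA, exchanges luminal chloride for bicarbonate and is mutated in congenital chloride diarrhea. It lies on chromosome 12 (12:31438219-31473919), and its promoter window is the first of those shown. In the P6 jejunum it stood at 209.9, 213, 225 and 213 CPM, a narrow band, and in the P6 ileum at 108, 69.9, 91.3 and 148 CPM. The jejunum was higher in all 4 mice, without overlap, by 2.06-fold (log2 1.04, SE 0.20, adjusted p = 0.00112, edgeR). At P36 the values were 266, 266, 220.0 and 267 CPM in the jejunum and 216, 165, 128 and 185 CPM in the ileum. The jejunum was again higher in 4 of 4 mice and the groups did not overlap, but the log2 value of 0.55 (SE 0.20, adjusted p = 0.0692, edgeR) missed the threshold. With the mouse as a replicate block it was 0.58 and passed (adjusted p = 0.0467), as it did without P36 ileum replicate 1 (0.68, adjusted p = 0.0310), without P6 ileum replicate 2 (adjusted p = 0.0377) and without P6 ileum replicate 4 (adjusted p = 0.0135). With age Slc26a3 rose 1.66-fold in the ileum (log2 0.73, SE 0.20, adjusted p = 0.00527, edgeR), where the ages overlapped. In the jejunum the value was 0.24 (adjusted p = 0.323, edgeR; approximate interval -0.14 to 0.63), which passed in a fit of only the 8 jejunum libraries (0.25, adjusted p = 0.0143). The interaction was 0.49 (adjusted p = 0.314, edgeR) and passed without P6 ileum replicate 4 (0.71, adjusted p = 0.0478).

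Slc26a6, or PAT1, is another apical anion exchanger, known for exchanging chloride, bicarbonate and oxalate, on chromosome 9 (9:108854043-108862143). It rose with age in both regions, and no regional difference passed. The P6 jejunum had 37.6, 39.9, 50.1 and 40.4 CPM and the P36 jejunum 491, 411, 352 and 406 CPM. In the ileum there were 60.5, 47.3, 69.4 and 17.0 CPM at P6 and 422, 206, 127 and 314 CPM at P36. The ages did not overlap in either region, and the ileum spread more widely than the jejunum at both ages. Slc26a6 was 9.88-fold higher at P36 in the jejunum (log2 3.30, SE 0.40, adjusted p = 3.66e-06) and 5.51-fold higher in the ileum (log2 2.46, SE 0.38, adjusted p = 5.16e-05, both edgeR). Its regional log2 value was -0.21 at P6 (adjusted p = 0.713; approximate interval -0.92 to 0.50) and 0.63 at P36 (adjusted p = 0.272, both edgeR; -0.08 to 1.34), and the interaction was -0.84 (adjusted p = 0.346).

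Of the summed TPM of these exchangers, Slc26a3 made up 83.9%, 83.3%, 80.8% and 83.2% in jejunum libraries at P6 and 33.7%, 37.7%, 36.9% and 38.1% at P36. The P6 ileum had 62.7%, 58.1%, 55.2% and 89.1%, of which the last belongs to the library with the lowest epithelial marker sum. The P36 ileum had 32.4%, 42.9%, 48.4% and 35.6%. The share was thus lower at P36 in both regions with no overlap of ages, and the P36 regions overlapped. The sum of both genes rose from 178 ± 18.5 to 444 ± 41.6 TPM in the jejunum and from 144 ± 27.3 to 303 ± 102.5 TPM in the ileum.

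**Figure D4:**
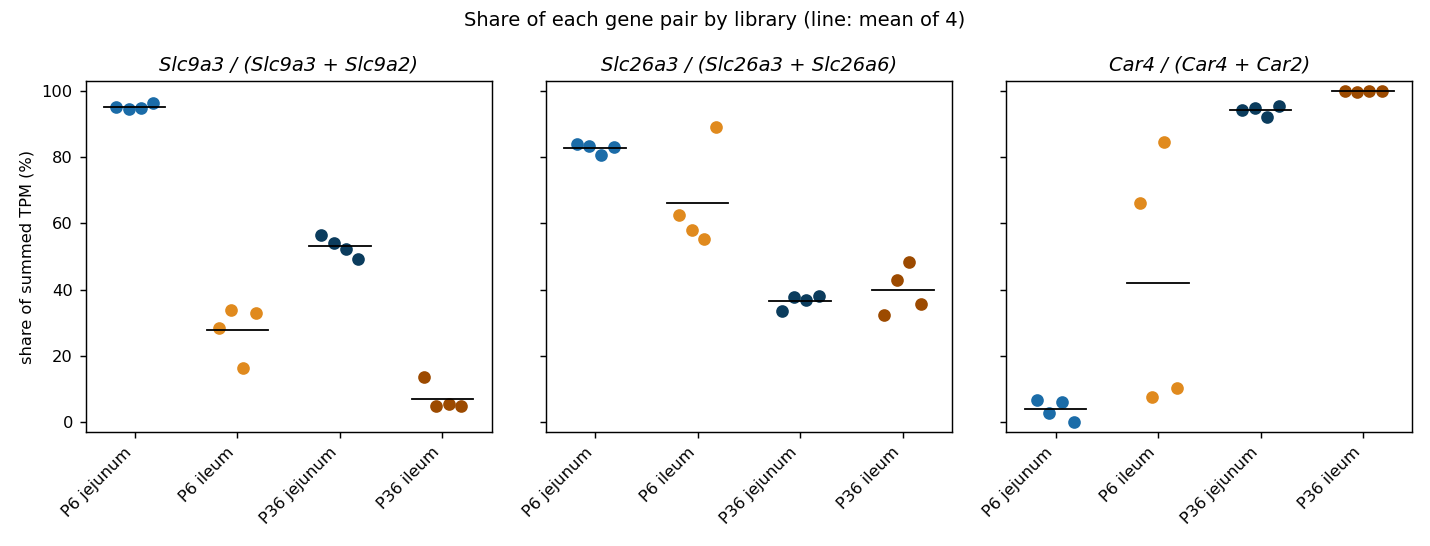
Share of the first gene in the summed TPM of 3 gene pairs, in percent, in each library (points) with the mean of 4 (line). In the jejunum, Slc9a3 goes from between 94.6% and 96.3% at P6 to between 49.3% and 56.4% at P36, Slc26a3 from between 80.8% and 83.9% to between 33.7% and 38.1%, and Car4 from at most 6.76% to at least 92.2%.

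Cftr encodes the cyclic AMP regulated chloride and bicarbonate channel of the apical membrane (6:18170687-18322769). It was higher at P36 in both regions, and no regional difference passed. The jejunum held 84.8, 83.7, 89.3 and 76.8 CPM at P6 and 204, 204, 191 and 213 CPM at P36. The ileum held 84.7, 50.4, 78.3 and 119 CPM at P6 and 158, 202, 212 and 183 CPM at P36. All P36 libraries of a region lay above all P6 libraries. The fold was 2.42 in the jejunum (log2 1.28, SE 0.19, adjusted p = 3.98e-05) and 2.27 in the ileum (log2 1.18, SE 0.19, adjusted p = 7.74e-05, both edgeR). Between regions the log2 value was 0.01 at P6 (adjusted p = 0.980; approximate interval -0.36 to 0.38) and 0.10 at P36 (adjusted p = 0.787, both edgeR; -0.27 to 0.47), and its sign turned under scaling by library totals at both ages. The crypt and cycling markers (Lgr5, Olfm4, Ascl2, Smoc2, Mki67 and Top2a) summed at P6 to between 532 and 686 CPM in jejunum libraries and 308 and 689 in ileum libraries, and at P36 to between 902 and 1119 and between 746 and 1583. The sum was higher at P36 in both regions, as Cftr was, and Smoc2, Mki67 and Top2a rose in both. Olfm4 passed only in the ileum. Lgr5, a marker of crypt stem cells, fell, from a mean of 19.1 to 5.08 CPM in the jejunum and from 36.3 to 19.8 CPM in the ileum, and Ascl2 passed in neither region, with log2 values of -0.64 and -0.12. The part of these markers in the rise of Cftr was not tested.

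Slc12a2, or NKCC1, loads chloride into secretory cells across the basolateral membrane and lies on chromosome 18 (18:57878678-57946821). It passed in none of the 4 comparisons. The P6 jejunum was uneven, with 248, 117, 373 and 138 CPM, and the P6 ileum had 229, 116, 251 and 226 CPM. At P36 the jejunum had 168, 165, 184 and 161 CPM and the ileum 222, 313, 425 and 283 CPM. At P36 every ileum library lay above every jejunum library. The log2 value of -0.88 (SE 0.32, adjusted p = 0.0794, edgeR) nevertheless missed the threshold in the fit that shared its spread with the P6 libraries. It passed with the mouse as a replicate block (-0.84, adjusted p = 0.0199), without P6 jejunum replicate 3 (-0.88, adjusted p = 0.0412) and without P36 ileum replicate 1 (-1.01, adjusted p = 0.0497). Of 8 settings other than leaving out a library, the block included, it passed in 4. Over these 8 it ran from -1.03 to -0.84 (adjusted p from 0.00894 to 0.0946, edgeR or DESeq2). At P6 the regional value was 0.09 (adjusted p = 0.861, edgeR; approximate interval -0.54 to 0.72) and was -0.29 without P6 jejunum replicate 3. With age it was -0.37 in the jejunum (adjusted p = 0.357; -1.0003 to 0.26), or 0.01 without P6 jejunum replicate 3, and 0.60 in the ileum (adjusted p = 0.127, both edgeR; -0.03 to 1.23).

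Slc4a4, the electrogenic sodium bicarbonate cotransporter NBCe1 (5:88887260-89239656), brings bicarbonate into the cell from the blood side. It rose with age in both regions and was an ileal gene at P6. The P6 jejunum had 27.3, 21.8, 38.2 and 21.4 CPM and the P6 ileum 64.4, 38.4, 66.2 and 78.4 CPM. The regions did not overlap, though the lowest ileum value was just above the highest jejunum value, and the ileum was higher in 4 of 4 mice. The ileum was 2.28-fold higher (log2 -1.19, SE 0.27, adjusted p = 0.00368, edgeR). At P36 the jejunum had 245, 233, 199 and 204 CPM and the ileum 374, 218, 155 and 244 CPM, with a regional value of -0.17 (adjusted p = 0.739, edgeR; approximate interval -0.68 to 0.34) that was 0.10 without P36 ileum replicate 1. The rise with age was 8.11-fold in the jejunum (log2 3.02, SE 0.28, adjusted p = 2.23e-07) and 4.00-fold in the ileum (log2 2.00, SE 0.27, adjusted p = 1.28e-05, both edgeR). The interaction was -1.02 (adjusted p = 0.106, edgeR). It passed without P36 ileum replicate 1 (-1.28, adjusted p = 0.0245), without P6 ileum replicate 2 (-1.19, adjusted p = 0.0468) and under scaling by library totals (-1.19, adjusted p = 0.0362).

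Within the P36 ileum, several of the genes ordered the 4 libraries alike. From highest to lowest the mature enterocyte sum ran 8386, 4055, 3337 and 1409.7 CPM in replicates 1, 4, 2 and 3. Slc9a2, Slc9a3, Slc26a3, Slc26a6 and Slc4a4 ran in exactly this order, 5 of the 10 genes, and Cftr and Slc12a2 in exactly the reverse order. Slc26a6, for instance, had 422, 314, 206 and 127 CPM along it and Slc12a2 had 222, 283, 313 and 425 CPM. None of the 10 genes followed the order of that sum, forward or reversed, in the other 3 groups. The orders of crypt and cycling, goblet and Paneth markers were compared in the same way in all 4 groups. In the P6 jejunum Slc9a2, Slc9a3, Scnn1a and Car4 took the order of the crypt and cycling sum, and in the P6 ileum Slc26a3 and Cftr did. Slc9a2, Slc26a6 and Car4 took the reverse of the Paneth order in the P6 ileum, as did Slc9a3 in the P36 jejunum, and Slc26a6 took the reverse of the goblet order in the P6 jejunum. With 4 libraries in a group these are descriptions with no test. How many of all tested genes took these orders was not counted. For Slc9a3 in the P36 ileum, replicates 4, 2 and 3 were close, at 5.78, 5.16 and 4.41 CPM.

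Car2 and Car4 are carbonic anhydrases, which interconvert carbon dioxide and bicarbonate. Car2 is the soluble cytosolic enzyme, and Car4 is held at the outer face of the apical membrane by a lipid anchor. Car2 (3:14886426-14900770) was low in every group but the P36 jejunum. The P6 jejunum had 57, 48, 43 and 70 counts (2.49, 2.14, 2.26 and 3.35 CPM) and the P6 ileum 7, 34, 6 and 12 counts (0.346, 1.46, 0.325 and 0.588 CPM). In the P36 jejunum there were 24.5, 23.7, 25.6 and 19.9 CPM, and the P36 ileum had only 4, 13, 7 and 8 counts (0.221, 0.737, 0.286 and 0.633 CPM). The jejunum was above the ileum in all 8 mice, with no overlap at either age. It was 3.66-fold higher at P6 (log2 1.87, SE 0.40, adjusted p = 0.00271) and 51.1-fold higher at P36 (log2 5.67, SE 0.45, adjusted p = 6.60e-07, both edgeR). Without P6 ileum replicate 2, the library rich in fibroblast and smooth muscle markers, the log2 value at P6 was 2.58. The regional difference was smaller at P6 than at P36 by 3.80 on the log2 scale (interaction -3.80, SE 0.59, adjusted p = 0.000750, edgeR), and the interaction was -3.09 without that library (adjusted p = 0.00117).

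With age, Car2 rose 9.13-fold in the jejunum (log2 3.19, SE 0.38, adjusted p = 3.06e-06, edgeR). In the ileum the value was -0.61 (adjusted p = 0.278, edgeR; approximate interval -1.53 to 0.30), and 0.10 without P6 ileum replicate 2. Car2 is also abundant in red blood cells. The globin genes Hbb-bs, Hbb-b1 and Hba-a1 were listed at 0 in all 16 libraries and so could not serve as markers, Alas2 was at most 1.32 CPM, and the part of red cells in the Car2 values was not tested.

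Car4 (11:84957754-84966054), whose promoter window is the third of those shown, went from almost no reads to the top of the 10 genes. The P6 jejunum had 3, 1, 2 and 0 counts and the P6 ileum 10, 2, 24 and 1 counts. At P36 the jejunum had 287, 315, 221 and 297 CPM and the ileum 332, 189.8, 226 and 296 CPM. Every P36 library had at least 3347 counts of the gene, and no P6 library more than 24. The ratio of P36 to P6 over summed counts was 3962 in the jejunum (22499 against 6 counts, 95% exact interval 1820.0 to 10797) and 569 in the ileum (18611 against 37 counts, 412 to 808), where the intervals cover counting error only. Both passed (adjusted p = 1.17e-09 and 3.68e-09, edgeR). At P36 the regional log2 value was 0.10 (adjusted p = 0.904, edgeR; approximate interval -0.66 to 0.86).

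At P6 Car4 was higher in the ileum (log2 -2.61, SE 0.89, adjusted p = 0.0411, edgeR), in 4 of 4 mice, but the groups overlapped and the counts were few. The call was lost in 9 of the 16 fits that left out 1 library: without P6 ileum replicate 1 or 3, without any 1 of the 4 P6 jejunum libraries, and without P36 jejunum replicate 1 or 4 or P36 ileum replicate 4. It was -1.48 (adjusted p = 0.188) without P6 ileum replicate 3, which held 24 of the 37 counts, and it was also lost with sex as a covariate (adjusted p = 0.0503). The interaction was -2.71 (adjusted p = 0.103, edgeR). With the replicate block it was -2.65 and passed (adjusted p = 0.0134), as it did without P6 ileum replicate 2 (-3.09, adjusted p = 0.0448) or replicate 4 (-3.07, adjusted p = 0.0322), and it was -1.59 without P6 ileum replicate 3. Of the summed TPM of Car4 and Car2, Car4 made up at most 6.76% in jejunum libraries at P6 and between 92.2% and 95.4% at P36. In the P36 ileum it made up at least 99.7%, and in the P6 ileum between 7.49% and 84.6%, where both genes were near the floor.

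A wider list of 70 genes of epithelial ion transport gave 54 that could be tested. The jejunum was the higher region for 9 of them (16.7%, against 11.1% of all tested genes) and the ileum for 11 (20.4%, against 14.8%) at P6, and for 10 (18.5%, against 8.30%) and 8 (14.8%, against 7.80%) at P36. With age, 22 rose (40.7%, against 24.7%) and 12 fell (22.2%, against 26.9%) in the jejunum, and 19 rose (35.2%, against 25.5%) and 15 fell (27.8%, against 30.1%) in the ileum. Their median log2 fold changes were -0.05 and 0.00 between regions at P6 and P36 and 0.55 and 0.34 with age in the jejunum and ileum. The interaction passed for 3 with a larger jejunal excess at P6 and 8 with a smaller one (5.56% and 14.8%). Of all 13429 tested genes, 494 and 673 passed in these directions, or 8.69% in both together.

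The potassium channels, which recycle potassium to keep chloride secretion driven, rose with age in 6 of 6 cases in the jejunum and 4 of 6 in the ileum, and none fell, beside 24.7% and 25.5% of all tested genes that rose. Kcne3, the regulatory subunit of the basolateral channel KCNQ1, rose by 2.25 and 2.51 on the log2 scale (adjusted p = 1.34e-07 and 4.68e-08, edgeR). Kcnn4, a calcium-activated channel, rose by 1.81 and 3.37 (adjusted p = 0.000115 and 3.36e-07). Of 4 sodium and proton pump genes tested, 3 rose in each region (75.0%). In the ileum 1 fell (25.0%, beside 30.1% of all tested genes). Atp1b1, a beta subunit of the sodium/potassium ATPase that powers all of these transporters, rose by 2.72 and 2.39 (adjusted p = 4.10e-08 and 1.61e-07, edgeR). Atp1b3, another beta subunit, fell by 0.81 in the ileum (adjusted p = 0.000633). Its jejunum value of -0.32 did not pass (adjusted p = 0.115, both edgeR).

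Of 8 other chloride/bicarbonate exchangers and bicarbonate cotransporters tested, 1 rose and 2 fell with age in the jejunum and 0 rose and 4 fell in the ileum. In the jejunum these shares of 12.5% and 25.0% were not above the 24.7% and 26.9% of all tested genes, and in the ileum 50% fell against 30.1%. Slc26a11, a sulfate and anion transporter, fell by 1.48 and 1.87 (adjusted p = 6.81e-05 and 6.53e-06, edgeR). Slc4a7, an electroneutral sodium bicarbonate cotransporter, was higher in the ileum at P6 (-0.90, adjusted p = 0.0102) and in the jejunum at P36 (1.12, adjusted p = 0.00377), and its interaction passed (-2.03, adjusted p = 0.00114, all edgeR). Slc4a5, a further sodium bicarbonate cotransporter, was higher in the jejunum at both ages, by 3.57 and 3.81 (adjusted p = 1.09e-06 and 1.20e-06, edgeR).

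Among 6 other carbonic anhydrases tested, 3 rose and 3 fell with age in the jejunum (50% each) and 2 rose and 3 fell in the ileum (33.3% and 50%), beside the same shares of all tested genes, 24.7% and 26.9% in the jejunum and 25.5% and 30.1% in the ileum. Car9, a membrane-bound form, followed Car4 upward by 3.68 and 3.24 (adjusted p = 1.35e-10 and 5.21e-10, edgeR) from means of 7.37 and 7.57 CPM at P6. Car8, a relative without catalytic activity, had log2 fold changes of -2.06 and -1.498 (adjusted p = 2.13e-06 and 4.56e-05, edgeR). Of 5 chloride cotransporters related to Slc12a2, 2 rose and 1 fell in each region, or 40.0% and 20%. Of 3 chloride channels, 2 rose in each region (66.7%), and Clcn2, a voltage-gated channel, did so by 2.86 and 3.20 (adjusted p = 4.37e-06 and 1.60e-06, edgeR).

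Of 10 regulators of secretion, 2 rose and 3 fell in the jejunum and 3 rose and 4 fell in the ileum. These shares, 20% and 30.0% in the jejunum and 30.0% and 40.0% in the ileum, were near those of all tested genes (24.7% and 26.9%, and 25.5% and 30.1%). Vipr1, a receptor of the secretory peptide VIP, rose by 1.68 and 1.92 (adjusted p = 1.36e-06 and 3.61e-07, edgeR). Prkg2, the cyclic GMP dependent kinase that acts on CFTR, fell by 1.22 and 3.15 (adjusted p = 0.000378 and 4.01e-08). The peptides that start this pathway through guanylate cyclase C had opposite regional patterns: Guca2a was higher in the ileum at P6 and P36 (-3.23 and -1.59, adjusted p = 1.57e-05 and 0.00616) and Guca2b in the jejunum (1.20 and 1.73, adjusted p = 0.0259 and 0.00487, all edgeR). Of 12 sodium uptake partners tested, 3 rose and 3 fell in the jejunum and 3 rose and 2 fell in the ileum, shares of 25.0% and 25.0% and of 25.0% and 16.7%, near or below those of all tested genes. Scnn1g, Prss8, Nr3c2 and Hsd11b2 are described with Scnn1a, and the rest of the 12 are given by count only.

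**Figure D5:**
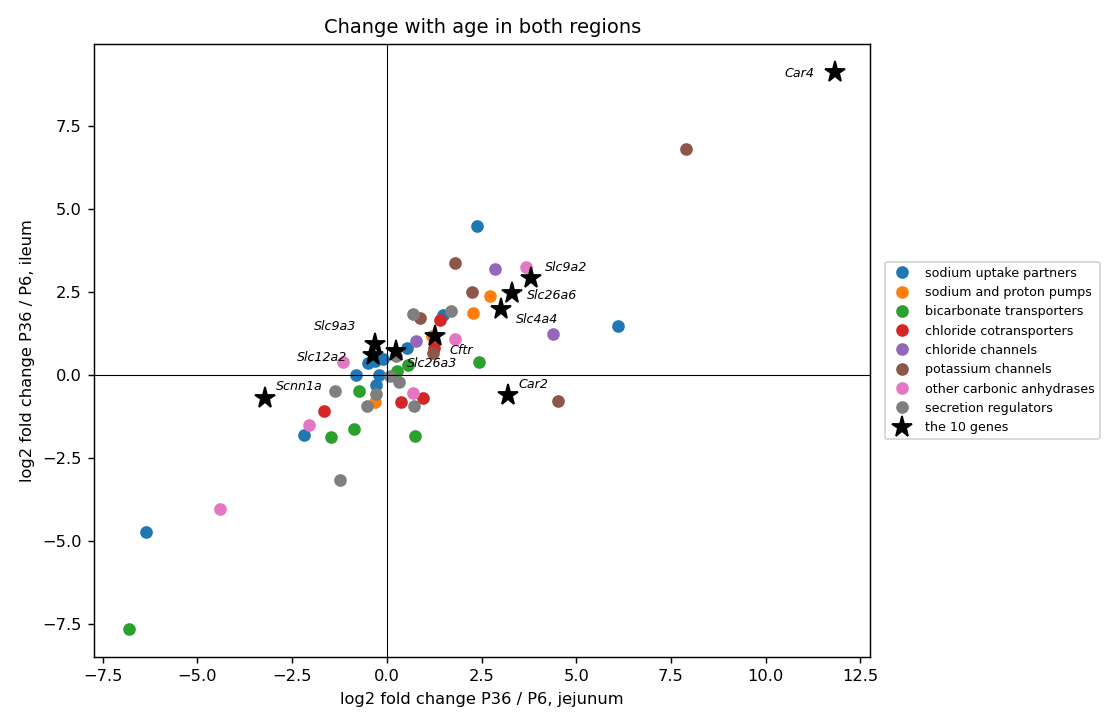
Log2 fold change with age (P36 over P6) in the jejunum (horizontal) and ileum (vertical) of the 10 genes (black stars) and the 54 tested genes of the wider list (points, colored by subgroup). Car4 lies at the upper right at 11.84 and 9.12, values that depend on the few P6 counts, Scnn1a lies at the left at -3.22 and -0.68, and Car2 stands off the diagonal at 3.19 and -0.61.

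Over the 16 libraries, several of the genes that rose with age also tracked each other. The Pearson correlation of log2 CPM was 0.986 between Slc9a2 and Car4, 0.972 between Slc9a2 and Slc4a4, 0.947 between Slc26a6 and Car4 and -0.906 between Scnn1a and Slc4a4. These are descriptions over 16 libraries that fall into 4 groups, so that the group means set much of them. The tested genes most like a member by the same measure were Kif13a (0.996) and Map3k6 (0.992) for Slc9a2, H2-Q2 (0.986) and Aqp11 (0.979) for Slc9a3, and Gda (0.951) and 1700019G17Rik (0.948) for Slc26a3. For Slc26a6 they were Mast2 (0.992) and Sult2b1 (0.987), and for Cftr Pdss1 (0.980). Scnn1a was most like Kcnh1 (0.988) and Elovl2 (0.976), Slc4a4 like Tmem2 (0.986) and P2ry2 (0.982), Car2 like Adh1 (0.962) and Marc2 (0.958), and Car4 like Slc28a3 (0.995) and Ocm (0.995). Slc12a2 had no gene as close, with Rbm12 at 0.900 and Lsg1 at 0.897.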

How the data were processed

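Each deposited file holds raw read counts per gene of 1 library, made by the authors. Per the labels, their stranded mRNA libraries came from EDTA-released epithelium. Their processing notes name Trimmomatic 0.38, STAR 2.5.3 and featureCounts of Subread 1.6.3 on mm10. The paper states a different STAR version. The count tables of 16 libraries hold 24421 genes, 18959 of them with a count.

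Genes were filtered with filterByExpr on the 4 groups, normalized by TMM, and compared by the quasi-likelihood test of edgeR 4.0.16 (limma 3.58.1, R 4.3.3), all 16 libraries in 1 fit of 4 group means with Benjamini-Hochberg adjustment over 13429 genes. SE is the log2 fold change divided by the square root of F. Approximate intervals are 1.96 SE either side. TPM used the deposited gene lengths, and log2 CPM a prior count of 2. Tests were checked on simulated counts.

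Mouse names in the titles pair the regions. Deviations from group means correlated between regions of a mouse (mean r 0.317 at P6 and 0.303 at P36). The means between mice (-0.106 and -0.101) follow from centering on the group and are not separate support. Single values within a mouse ran from 0.157 to 0.391 at P6 and from 0.240 to 0.347 at P36. Between mice the highest were 0.120 and 0.232. The members and lists were chosen with earlier results of these data known. Named genes are the 10 members, up to 3 passing genes per subgroup, direction and comparison of the wider list with the smallest adjusted p, the 2 genes most correlated with each member, and cell type markers beside a result. Results for some of the genes so chosen are not reported here, and the marker sums leave those genes out.

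Alternatives were DESeq2 1.42.0, median-of-ratios and library-total scaling, no filter, a mean CPM of at least 1, sex as a covariate, the mouse as a block, fits of only the 8 libraries compared, a log2 fold change minimum of 2, and each library left out.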

Additional observations from a re-analysis of the deposited data

Results flagged for a closer look

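A few results stood out. Slc9a3 in the P36 ileum had 1 library, replicate 1, far above the others at 29.4 CPM, with a gap to the next library of 0.945 of the whole range. Slc26a3 in the P36 jejunum had 1 library, replicate 3, below the others at 220.0 CPM, with a gap of 0.971 of a narrow range. These were 2 of 40 checks of a gene in a group, and chance gives about 1 in 20.

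The regional log2 fold change of Scnn1a differed between the ages by 2.54 and that of Car2 by -3.80 (P6 minus P36), both by the interaction term of the edgeR quasi-likelihood test (adjusted p = 8.13e-07 and 0.000750). Both passed under each alternative run and in each of the 16 fits without 1 library.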

How the results depend on the processing

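Apart from leaving out a library, 350 values kept their direction and side of the threshold, 12 came to pass, 1 no longer passed and 6 turned sign. Requiring an absolute log2 fold change above 2 left 2 of the 10 genes, 7 of the wider list and 873 of all genes between regions at P6. At P36 it left 3 of the wider list and 484 of all genes, with age in the jejunum 16 and 2209, in the ileum 4 of the 10 genes, 11 and 2204, and for the interaction 6 and 453. At P36, 5 of the 10 genes in place of 3 passed under DESeq2, the replicate block and fits of only 8 libraries. Under library totals, 4 in place of 2 had an interaction. Counts of all genes under these settings are not given beside these, so no gain particular to the 10 genes is read from them. Library totals shifted the median of all genes by -0.29 between regions at P6 and moved the share of calls higher in the jejunum from 42.9% to 17.97%, at P36 from 51.5% to 37.8% (median shift -0.14) and for the interaction from 42.3% to 24.2% (-0.15). They turned Cftr to -0.28 at P6 and -0.0496 at P36, Slc12a2 to -0.18 at P6 and Car4 to -0.0166 at P36. Cftr at P6 was -0.00824 under the CPM filter, and Slc12a2 -0.00260 with the replicate block. Beside the calls given above, pairing by mouse changed no other call of the 10 genes. No paired analysis was possible across ages because each age had its own mice. The cause of these shifts was not tested.

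Leaving out 1 library gave 6 to 7 of the 10 genes between regions at P6 (wider list 15 to 26, all genes 2605 to 4450) and 3 to 5 at P36 (13 to 26, 1418 to 3922). It gave 7 with age in the jejunum (31 to 40, 6286 to 8547), 7 to 8 in the ileum (29 to 36, 7005 to 8465) and 2 to 4 for the interaction (7 to 14, 835 to 1912). Signs turned, all for values that had not passed: Cftr at P6 ran from -0.17 to 0.24, Slc12a2 at P6 from -0.29 to 0.31, Slc9a2 at P36 from -0.27 to 0.18, Slc4a4 at P36 from -0.34 to 0.10, Car4 at P36 from -0.00651 to 0.24, Slc12a2 with age in the jejunum from -0.58 to 0.0132, Slc9a3 with age in the ileum from -0.20 to 1.21, Car2 with age in the ileum from -0.94 to 0.10 and the Cftr interaction from -0.27 to 0.14. Depth limits Car2 in the P36 ileum, which rested on 32 counts, and Car4 at P6, on 6 in the jejunum and 37 in the ileum.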

Other observations

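The names of the P6 mice begin with L41800 (replicates 1 and 3) or L42150 (replicates 2 and 4), and the labels do not say what this stands for. Slc12a2 in the P6 jejunum was 248 and 373 CPM in the first pair and 117 and 138 in the second. Car4 in the P6 ileum was 10 and 24 counts in the first pair and 2 and 1 in the second. Slc9a2 in the P6 ileum was 23.7 and 32.4 CPM in the first pair and 18.2 and 15.8 in the second. These are 3 of 20 cases of a gene in a P6 group. In 11 of the 20 the first pair lay above the second, in 1 (Car2 in the ileum) the second lay above the first, and in 8 they overlapped. No test was run on these pairs, and the same tally over all tested genes was not made. In the P6 ileum the second pair, replicates 2 and 4, are the libraries whose marker sums stood apart, as given above.

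Genes on the marker lists of other cell types were also high in these epithelial libraries at P6. Csf1r, a receptor known from macrophages, had a P6 mean of 455 CPM in jejunum and 244 in ileum libraries against 2.04 and 1.08 at P36. Ret, a receptor of enteric neurons, had 116 and 185 CPM at P6 against 5.05 and 7.55 at P36.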
